A study of Mus musculus with 24 samples.

Results

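Leukocyte-enriched microRNAs are microRNAs that white blood cells make in large amounts relative to most other cells. Their abundance was measured here in the soleus, a slow-twitch postural muscle of the calf, of transgenic mice and their littermates. The set held 7 of the 584 microRNA assays on a pair of TaqMan real-time PCR cards, chosen by name: miR-142-3p, miR-142-5p, miR-146a, miR-146b, miR-150, miR-155 and miR-223. All 7 assays were on card A, each in a single well. RNA came from 12 male mice aged 12 weeks, in 4 groups of 3. MCK-PPARa mice overexpress the nuclear receptor PPARα from a muscle-specific transgene, and NTGa are the non-transgenic wild-type littermates of that line. MCK-PPARb mice overexpress PPARβ in the same way, and NTGb are the wild-type littermates of that line. MCK stands for the muscle creatine kinase promoter, which is active in striated muscle fibres, so the transgenes are not aimed at the leukocytes of the tissue. The RNA was extracted from whole muscle, and the sources used here do not say whether blood was washed out. No purified leukocytes were measured, so the name of the set rests on what is known of these microRNAs and not on these data.

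A microRNA guides a silencing complex to messenger RNAs that pair with its seed, the bases near its 5′ end. miR-223 is typical of neutrophils, monocytes and platelets, and miR-142 is made in nearly all blood cell lineages, with both arms of its hairpin in use. miR-150 is abundant in mature B and T lymphocytes. miR-155 and miR-146a are raised by inflammatory signals through NF-κB, where miR-155 promotes the response and miR-146a dampens it by acting on the adaptors IRAK1 and TRAF6. Resting muscle holds resident macrophages and blood in its capillaries, and PPARα and PPARβ, besides their role in fatty acid use, are known to restrain inflammatory gene expression. In a whole-muscle extract, fewer cells of a type and less RNA per cell cannot be told apart.

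The mature sequences of 6 of the 7 microRNAs were found in RefSeq (mouse build GRCm38.p6) and are shown because the seed decides the targets and because miR-146a and miR-146b behaved very differently in these assays. Capitals mark the seed, bases 2 to 8 counted from the 5′ end.
miR-142-3p: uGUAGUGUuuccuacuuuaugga
miR-142-5p: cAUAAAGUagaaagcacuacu
miR-146a: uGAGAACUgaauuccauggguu
miR-146b: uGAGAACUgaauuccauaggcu
miR-155: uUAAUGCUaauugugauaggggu
miR-223: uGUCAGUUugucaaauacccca
These 6 sequences carry 5 different seeds, and only miR-146a and miR-146b share one. Over their 22 bases miR-146a and miR-146b differ at 2 positions, G18A and U21C, where the first base is that of miR-146a. The arms of miR-142 lie in the gene Mir142, miR-142-5p at chr11:87756867-87756887 and miR-142-3p at chr11:87756903-87756925, both on the plus strand. miR-146a lies in Mir146 at chr11:43374435-43374456 on the minus strand, and miR-146b in Mir146b at chr19:46342790-46342811 on the plus strand. miR-155 lies at chr16:84714143-84714165 on the plus strand, inside the long non-coding RNA gene Mir155hg. miR-223 lies in Mir223 at chrX:96242884-96242905 on the plus strand. The gene of miR-150, Mir150, is on chromosome 7. The set therefore comes from 6 separate genes, and only the arms of miR-142 share a precursor.

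Abundance was read as the cycle threshold (Ct), the PCR cycle at which the fluorescence of a well passes a set level. A lower Ct stands for more template, and a Ct under 35 was taken as detection. Per animal, 173 to 202 of the 375 microRNA assays of card A were detected. For each animal, the Ct of a microRNA was subtracted from the mean Ct of the 149 card A microRNAs that all 12 animals showed (the reference Ct). The result is a relative abundance in log2 units, in which 0 is the level of that mean. NTGb replicate 2 stood apart within its group, with a reference Ct of 27.6, against 28.4 in both other NTGb animals, though NTGa replicate 2 was near it at 27.7. The median absolute log2 difference from its group mates was 0.511 and 0.606, where the other pairs within groups had 0.304 to 0.424. Over the tested assays, MCK-PPARa replicate 1 correlated least with the remaining animals (median r = 0.933), against medians of 0.960 to 0.974 elsewhere. The number of card A microRNAs detected averaged 193 ± 1.53 in MCK-PPARa and 185 ± 5.69 in NTGa (SD, n = 3 each, exact permutation test, p = 0.1), the smallest p that 3 animals against 3 can give. It averaged 186 ± 5.69 in MCK-PPARb and 184 ± 15.9 in NTGb (exact permutation test, p = 0.8). Of 7 skeletal muscle microRNAs, 6 were detected in all 12 animals, whereas 1 of 8 epithelial and liver microRNAs was. The muscle microRNAs miR-133a, miR-1 and miR-133b ranked 1st, 6th and 7th on card A by mean Ct. From the same list, miR-486 ranked 20th and miR-499 78th, and miR-208b was not detected in any MCK-PPARa animal.

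Of the 7 leukocyte-enriched microRNAs, 5 were detected in all 12 animals, in the upper and middle part of the abundance range of card A. miR-150, the lymphocyte microRNA, had the lowest mean Ct, 23.8 ± 0.321 (SD over 12 animals), and ranked 19th of the 149 microRNAs detected in every animal. miR-146a followed at 25.03 ± 0.362 and rank 29. miR-223, the myeloid microRNA, stood at 25.8 ± 0.411 and rank 41. miR-155 stood at 25.9 ± 0.182 and rank 43, and miR-142-3p at 28.4 ± 0.599 and rank 70. Ranks compare assays of unknown amplification efficiency, so they order the Ct values and not the numbers of molecules.

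**Figure D1:**
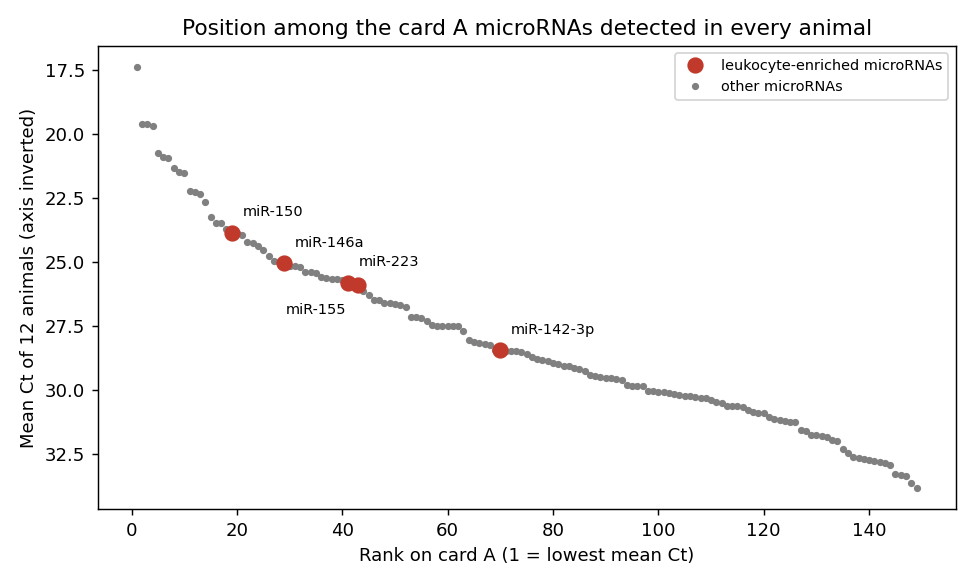
Mean Ct over 12 animals (vertical axis in cycles, inverted so that abundant microRNAs lie high) against rank on card A for the 149 microRNAs detected in every animal. Grey dots are the other microRNAs, and red circles are the 5 leukocyte-enriched ones, which run from miR-150 at rank 19 to miR-142-3p at rank 70.

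The order within the set was the same in every animal except for miR-223 and miR-155. The Ct of miR-146a was above that of miR-150 in 12 of 12 animals, by 1.19 ± 0.374 cycles (mean ± SD). miR-223 lay above miR-146a in 12 of 12 animals, by 0.769 ± 0.284 cycles, and miR-142-3p above miR-155 in 12 of 12, by 2.55 ± 0.630 cycles. Between miR-155 and miR-223 the gap was 0.0892 ± 0.405 cycles and positive in 7 of 12 animals, so this pair did not differ beyond its spread.

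The other 2 assays lay at or beyond the detection limit. miR-146b gave no Ct in any of the 12 animals, although its seed and most of its sequence are those of miR-146a, which was detected near Ct 25 in all of them. No Ct within 40 cycles gives no level, only a bound on this assay. miR-142-5p had a Ct of 34.94 and 34.95 in MCK-PPARa replicates 1 and 2 and none in replicate 3, against none, 33.91 and 34.98 in NTGa replicates 1 to 3. In MCK-PPARb it had none, 36.54 and 33.86 in replicates 1 to 3, against 34.26, 33.44 and 36.02 in NTGb. It was thus detected in 7 of 12 animals, and in no group was it detected in all 3. Where both arms of miR-142 had a Ct, in 9 animals, the 5p assay came 5.06 to 7.78 cycles after the 3p assay (median 6.37). This gap mixes the ratio of the arms with the efficiencies of their assays. Well pairs on card B at Ct 33 to 35 differed by a median of 0.915 cycles, so differences of this size in miR-142-5p lie within repeat error. The passenger strands miR-146b* and miR-150*, on card B in a pair of wells each, had a Ct in at most 3 of 12 animals per well, at 35.3 or later.

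The 5 microRNAs detected throughout were compared between groups with limma, fitted on the 268 assays that at least 1 group showed in each of its 3 animals. A microRNA was called changed at a Benjamini-Hochberg adjusted p under 0.05. In MCK-PPARa against NTGa, 0 of the 5 were called, where 2.24% of the tested assays were, and 0 of the 5 had an unadjusted p under 0.05, where 16.4% of the tested assays did. In MCK-PPARb against NTGb, 0 of the 5 were called, as was 0% of the tested assays, and 0 of the 5 had an unadjusted p under 0.05, against 8.58% of them. The values behind these counts follow by the role of each microRNA.

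Among the myeloid and pan-leukocyte microRNAs, miR-142-3p stood higher in MCK-PPARa. Its relative abundance was -0.23, -0.12 and 0.10 in the MCK-PPARa animals, against -0.97, -0.44 and -0.69 in NTGa. All 3 transgenic animals lay above all 3 littermates. The groups did not overlap in this direction for 14.9% of the tested assays, so the separation alone was not unusual. The log2 change was 0.62 (SE 0.35, 95% interval -0.15 to 1.38, limma adjusted p = 0.431), a 1.53-fold higher mean that did not pass. In MCK-PPARb, miR-142-3p was at 0.13, -0.74 and -0.66, against -0.66, 0.11 and -1.17 in NTGb. Each of these groups held 1 animal well above the other 2, and the groups overlapped (log2 0.15, SE 0.35, limma adjusted p = 0.882). The sign of this small value depended on single animals and on the scaling, for it was -0.13 without MCK-PPARb replicate 1, -0.15 without NTGb replicate 3 and -0.04 with the median as reference.

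miR-223 was at 2.47, 2.61 and 2.16 in MCK-PPARa, against 1.77, 2.11 and 2.30 in NTGa. Here 2 of 3 transgenic animals exceeded every littermate, and the groups overlapped. Its log2 change was 0.35 (SE 0.24, 95% interval -0.17 to 0.88, limma adjusted p = 0.520). In MCK-PPARb the 3 animals were close together at 2.07, 2.07 and 2.17, against 1.93, 2.58 and 2.13 in NTGb. The MCK-PPARb values fell within the range of NTGb, whose replicate 2 was the highest (log2 -0.11, SE 0.24, limma adjusted p = 0.882). Without NTGb replicate 2 this value was 0.08.

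Of the inflammation-linked pair, miR-146a had the lowest unadjusted p of the 5 in the PPARβ line (limma, 0.0871), which was rank 37 among the 268 assays. miR-146a was at 2.66, 2.49 and 2.76 in MCK-PPARb, against 2.82, 2.92 and 3.44 in NTGb. All 3 transgenic animals lay below all 3 littermates, a separation in this direction that 4.48% of the tested assays showed. The log2 change was -0.42 (SE 0.22, 95% interval -0.92 to 0.07, limma adjusted p = 0.559), which did not pass. NTGb replicate 3 carried much of it, since the change was -0.23 without that animal. With U6 snRNA as reference it was -0.11, and the median of all assays was 0.33 in place of 0.02, so miR-146a lay about as far below the median. In MCK-PPARa, miR-146a was at 3.21, 3.43 and 2.94, against 2.99, 2.92 and 3.02 in NTGa. The NTGa animals spanned about 0.1 on the log2 scale around the lowest MCK-PPARa animal (log2 0.21, SE 0.22, limma adjusted p = 0.737). Without MCK-PPARa replicate 2 the value was 0.10, and without replicate 3 it was 0.34. Among the 4 groups the mean of miR-146a was 3.19 ± 0.245 in MCK-PPARa, 2.63 ± 0.136 in MCK-PPARb, 2.98 ± 0.0545 in NTGa and 3.06 ± 0.332 in NTGb (SD, n = 3 each).

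miR-155 was at 2.55, 2.06 and 2.01 in MCK-PPARa, against 2.02, 1.89 and 1.98 in NTGa. One transgenic animal, replicate 1, stood well above the rest, and the groups overlapped (log2 0.24, SE 0.28, limma adjusted p = 0.758). Without that animal the log2 value was 0.07, while that of miR-142-3p was 0.69, of miR-223 0.32, of miR-146a 0.20 and of miR-150 -0.22. In MCK-PPARb it was at 1.99, 1.86 and 2.25, against 2.32, 1.67 and 2.70 in NTGb. The NTGb animals enclosed all 3 MCK-PPARb animals (log2 -0.19, SE 0.28, limma adjusted p = 0.872).

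miR-150, the lymphocyte microRNA, was at 4.38, 4.15 and 3.97 in MCK-PPARa, against 4.03, 4.58 and 4.22 in NTGa. The groups overlapped (log2 -0.11, SE 0.34, limma adjusted p = 0.874). In MCK-PPARb it was at 4.19, 3.70 and 3.90, against 4.68, 3.42 and 4.61 in NTGb. All MCK-PPARb animals lay between NTGb replicate 2 and the other NTGb animals (log2 -0.31, SE 0.34, limma adjusted p = 0.835). Without NTGb replicate 2 the change of miR-150 was -0.72 (limma unadjusted p = 0.0128, adjusted p = 0.405), farther from 0 and still not called. It was -0.09 without NTGb replicate 1 and -0.12 without NTGb replicate 3, so each NTGb animal moved it by over 1.5 times.

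**Figure D2:**
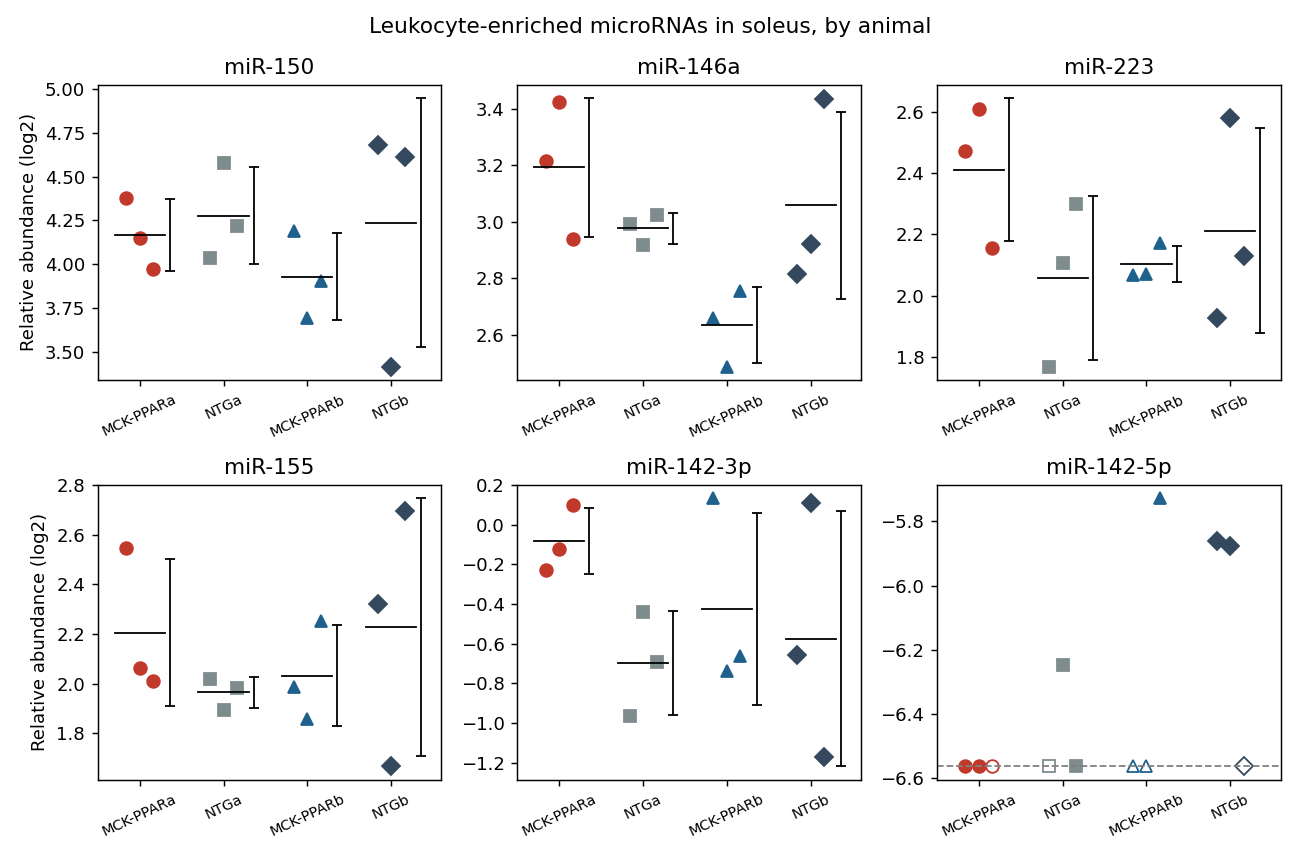
Relative abundance (log2, 0 is the mean of the card A reference microRNAs) of 6 leukocyte-enriched microRNAs in each of 12 animals, by group; horizontal lines are means and bars the SD (n = 3). Open symbols in the miR-142-5p panel are animals without a Ct under 35, and its dashed line is the floor at -6.56. The MCK-PPARa animals lie above NTGa for miR-142-3p, the MCK-PPARb animals lie below NTGb for miR-146a, and the other transgenic groups overlap their littermates.

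The precision of these comparisons is given by their intervals, which use a spread pooled over all 4 groups. Across the 5 microRNAs in MCK-PPARa against NTGa, the 95% intervals reached at most 2.60-fold higher, for miR-142-3p, and for miR-146a they ran from 0.823-fold to 1.64-fold. In MCK-PPARb against NTGb, the interval of miR-146a ran from 0.529-fold to 1.05-fold and that of miR-150 from 0.484-fold to 1.35-fold. In this fit, changes within these bounds could not be told from none with 3 animals per group. The SD of miR-142-3p was 0.17 in MCK-PPARa and 0.26 in NTGa, but 0.48 in MCK-PPARb and 0.64 in NTGb. Fitted on MCK-PPARa and NTGa alone, its SE was 0.20 in place of 0.35. There its limma unadjusted p was 0.0245 and its adjusted p 0.192, so it was still not called. Fitted on MCK-PPARb and NTGb alone, its SE was 0.41. The within-group SD of miR-223 (0.246), miR-146a (0.219) and miR-142-3p (0.432) was close to the median of other card A microRNAs within 1 cycle of the same Ct (0.219, 0.206 and 0.418). That of miR-150 was 0.414, against a median of 0.222 in 11 such microRNAs, and that of miR-155 was 0.318, against 0.219 in 23. NTGb had the widest spread of both, with an SD of 0.711 for miR-150 and 0.520 for miR-155. In the other groups the SD was 0.203 to 0.278 for miR-150 and 0.0641 to 0.296 for miR-155.

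Of the 5 microRNAs, 3 differed in sign between the lines, namely miR-146a, miR-155 and miR-223, while miR-142-3p was positive and miR-150 negative in both. In MCK-PPARa against NTGa, 4 of 5 values were positive (median 0.24), where 58.6% of all tested assays were positive (median 0.12). In MCK-PPARb against NTGb, 4 of 5 were negative (median -0.19), where 48.5% of all tested assays were negative (median 0.02). With U6 snRNA as reference, 3 of these 4 negative values, those of miR-150, miR-155 and miR-223, were positive, and the median of all assays was 0.33. The difference of the transgene effects, (MCK-PPARa minus NTGa) minus (MCK-PPARb minus NTGb), was tested directly. Of the 5 values, 5 were positive (median 0.46), where 53.7% of all tested assays were positive (median 0.06), and 0 of 5 were called, where 1.12% of the tested assays were. At an unadjusted limma p under 0.05 the counts were 0 of 5 and 10.4%. The lowest p belonged to miR-146a, with a difference of 0.64 (SE 0.32, 95% interval -0.06 to 1.34, limma adjusted p = 0.485). miR-142-3p differed by 0.46 (SE 0.49, limma adjusted p = 0.790), miR-223 by 0.46 (SE 0.34, adjusted p = 0.690), miR-155 by 0.44 (SE 0.39, adjusted p = 0.758) and miR-150 by 0.20 (SE 0.47, adjusted p = 0.909). Leaving out 1 animal moved the difference to between 0.12 and 0.76 for miR-142-3p, 0.28 and 0.60 for miR-223 and 0.20 and 0.72 for miR-155. The lowest values of miR-142-3p and miR-223 came without NTGb replicate 2, and that of miR-155 without NTGb replicate 3. None of these passed, and 4 of the 5 signs turned with U6 snRNA as reference, under which the median of all assays moved from 0.06 to -0.35. Of the 5, miR-146a alone kept a positive value with that reference (0.14), and all 5 were above the shifted median.

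**Figure D3:**
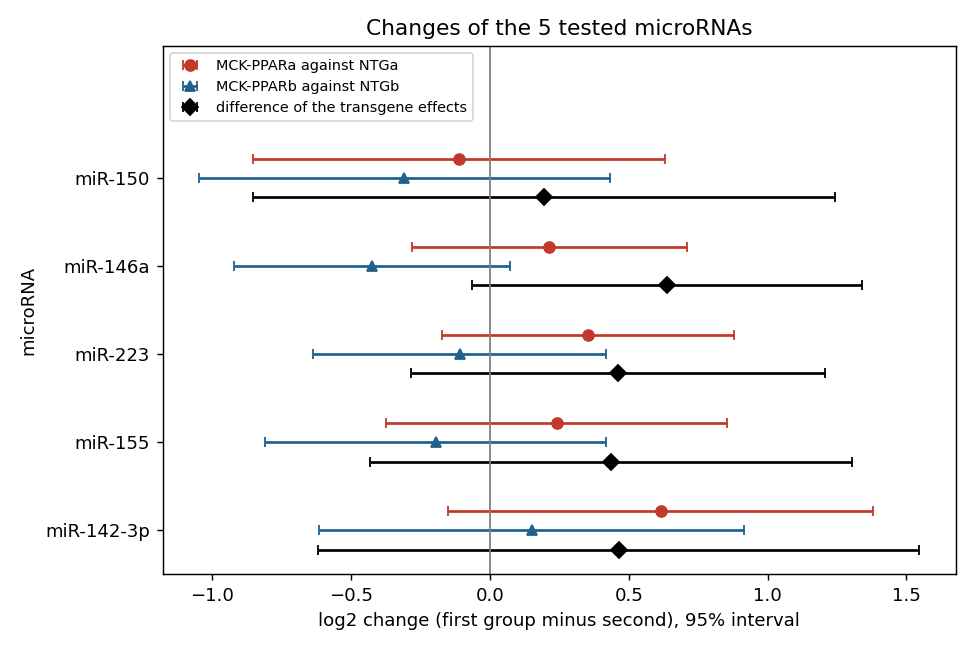
Log2 changes with 95% intervals (limma, 12 animals) of the 5 tested leukocyte-enriched microRNAs in MCK-PPARa against NTGa (red circles), MCK-PPARb against NTGb (blue triangles) and the difference of these effects (black diamonds). All 15 intervals cross 0.

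The littermate groups were also set against each other, since each line has its own controls. In NTGa against NTGb, 0 of the 5 were called, where 1.87% of the tested assays were, and 0 had an unadjusted limma p under 0.05, where 15.7% did. Of the 5 values 4 were negative, as were 52.2% of all tested. The log2 values (NTGa minus NTGb) ran from -0.26 for miR-155 (SE 0.28, limma adjusted p = 0.665) through -0.15 for miR-223, -0.13 for miR-142-3p and -0.08 for miR-146a to 0.04 for miR-150. The sign of these values rests on the scaling, which moved the whole card: the median of all assays was -0.03 as reported, 0.49 with U6 snRNA as reference and -0.22 with the median as reference. The spread within NTGb was the widest of the 4 groups for miR-142-3p (SD 0.64), miR-150 (0.71), miR-155 (0.52), miR-223 (0.33) and miR-146a (0.33).

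That spread came with a contrast between animals. In NTGb replicate 2, the Ct of miR-223 was 24.98, against 26.47 and 26.31 in NTGb replicates 1 and 3, and that of miR-142-3p was 27.46, against 29.05 and 29.61. The Ct of miR-150 went the other way, 24.15 in NTGb replicate 2 against 23.72 and 23.82. The Ct of miR-155 was 25.90 in NTGb replicate 2, between 26.08 and 25.74 in NTGb replicates 1 and 3. The reference Ct of NTGb replicate 2 was the lowest of its group. Relative to the reference, NTGb replicate 2 was the highest of its group for miR-223 and miR-142-3p and the lowest for miR-150 and miR-155. Markers of other cells were also shifted in this animal. Of the 4 smooth muscle and fibroblast microRNAs detected in every animal, miR-214 and miR-199a-3p were at 2.08 and 3.45, against 0.47 to 0.52 and 2.42 to 2.49 in the other NTGb animals. The other 2, miR-143 and miR-145, went the opposite way, at 1.90 and 3.81, against 2.27 to 2.30 and 4.38 to 4.49. The linear sum of that list was 32.99 in NTGb replicate 2, between 34.2 and 32.7 in NTGb replicates 1 and 3. Endothelial miR-126-3p was at 7.64, against 8.70 and 8.82, and muscle miR-133a at 10.05, against 11.02 and 11.27. The part of these shifts in the values of the leukocyte-enriched microRNAs was not tested.

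Across the 12 animals, miR-223 and miR-142-3p followed the reference Ct, and miR-150 and miR-155 did so much less. The slope of the Ct against the reference Ct was 1.71 for miR-142-3p (Pearson r = 0.75), 1.26 for miR-223 (r = 0.80), 0.86 for miR-146a (r = 0.62), 0.20 for miR-150 (r = 0.16) and 0.11 for miR-155 (r = 0.15). A slope of 1 would be expected of a microRNA that moves with the whole card, and the median of the other 144 microRNAs was 0.92. Without NTGb replicate 2, the slopes were 1.49 for miR-142-3p, 1.03 for miR-223, 0.85 for miR-146a, 0.53 for miR-150 and 0.15 for miR-155. The abundant muscle microRNA miR-133a had a slope of 0.04 with NTGb replicate 2 and 0.17 without it, and endothelial miR-126-3p 0.15 with and 0.50 without it. These are descriptions over 12 animals of 4 groups, which share the reference.

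**Figure D4:**
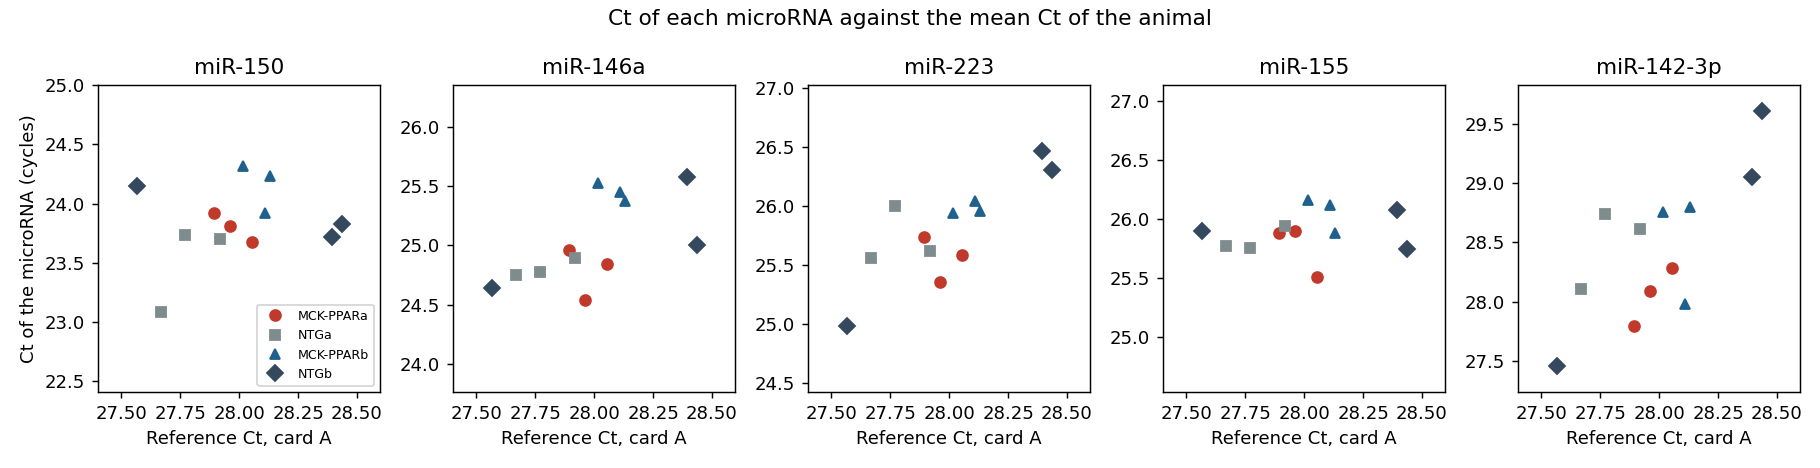
Ct of 5 leukocyte-enriched microRNAs (vertical axes, cycles, each spanning the same number of cycles) against the reference Ct of card A (horizontal axis, cycles) in 12 animals, with a symbol per group. The NTGb animal at the left, with a reference Ct of 27.6, has the lowest Ct for miR-223 and miR-142-3p and a high Ct for miR-150.

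Within the set, 5 of the 10 pairs had a positive correlation of relative abundance across the 12 animals. As deviations from the group means 5 pairs were positive, and 7 were without NTGb replicate 2. The highest were miR-150 with miR-155 (r = 0.66), miR-142-3p with miR-223 (r = 0.53) and miR-146a with miR-155 (r = 0.52), and the lowest was miR-142-3p with miR-155 (r = -0.45). When each animal was taken as its deviation from its group mean, these values were 0.74, 0.39, 0.56 and -0.73. Without NTGb replicate 2 the deviations gave 0.25, -0.10, 0.57 and -0.44, so NTGb replicate 2 carried much of the values of miR-150 with miR-155 and of miR-142-3p with miR-223. The pairs of highest r without that animal were miR-146a with miR-223 (0.61, against 0.27 with it) and miR-142-3p with miR-150 (0.60, against -0.36 with it). All pairs share the reference and the card, which enters every correlation.

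For each of the 5, the non-member microRNAs of most similar pattern over the 12 animals were sought among the other 144 of card A. Each r given is among the 3 highest of 144 and is raised by that selection. miR-142-3p was most like miR-99b (r = 0.85), miR-532-5p (0.78) and miR-25 (0.76). miR-223 was most like miR-409-3p (0.70), miR-532-3p (0.61) and miR-491 (0.55). miR-150 and miR-155 had the same 3 closest microRNAs, miR-186, muscle miR-133a and endothelial miR-126-3p. In that order r was 0.87, 0.85 and 0.79 for miR-150 and 0.78, 0.80 and 0.83 for miR-155. The Ct of miR-150, miR-155, miR-133a and miR-126-3p followed the reference Ct little (slopes 0.20, 0.11, 0.04 and 0.15). Each relative abundance is the reference Ct minus the Ct of the microRNA, so the shared reference enters these r. Its part in them was not tested. miR-146a was most like miR-29b (0.71), miR-34a (0.67) and miR-342-3p (0.67), of which miR-342-3p is itself abundant in lymphocytes. Without NTGb replicate 2, the value of miR-150 with miR-186 was 0.78, and that of miR-223 with miR-409-3p was 0.60. The values of miR-155 with miR-126-3p (0.84), miR-142-3p with miR-99b (0.82) and miR-146a with miR-29b (0.71) moved less.

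A wider list of 17 microRNAs of blood cells and inflammation had 16 assays on the cards, of which 14 could be tested. miR-147 and miR-342-5p, which are also tied to leukocytes, were not detected in any animal. Of the 14, 0 were called in MCK-PPARa against NTGa, where 2.24% of the tested assays were. The 14 held 10 positive and 4 negative values (median 0.26), where 58.6% of all tested assays were positive (median 0.12). miR-221, which targets the receptor KIT in blood progenitors, had the lowest p (log2 2.22, SE 0.81, limma adjusted p = 0.217), but it was at or under the floor in 2 of 3 NTGa animals, which limits that size. miR-181a, a regulator of lymphocyte development, was at 0.60 (SE 0.32, limma adjusted p = 0.398). In MCK-PPARb against NTGb, 0 of the 14 were called, as was 0% of the tested assays. Here 10 values were positive and 4 negative (median 0.10), where 137 of the 268 tested assays were positive (median 0.02). miR-27a was at 0.42 (SE 0.19, limma adjusted p = 0.532) and miR-24 at 0.43 (SE 0.25, limma adjusted p = 0.559). Lymphocyte-rich miR-342-3p, 1 of the 4 negative values, was at -0.63 (SE 0.36, limma adjusted p = 0.559). For the difference of the effects, 0 of the 14 were called, where 1.12% of the tested assays were. Of the 14 values 11 were positive and 3 negative (median 0.15), where 53.7% of all tested assays were positive (median 0.06). miR-342-3p had the lowest p of the list, at 1.01 (SE 0.51, limma adjusted p = 0.494), in the same direction as miR-146a.

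The cards did not measure the blood content of the tissue, and markers of red cells and vessels are given here only as context. Of the erythroid markers 1 was on the cards, miR-451. Erythroid miR-451 was at -0.06, -0.74 and -1.09 in MCK-PPARa, against -1.03, -0.98 and -1.61 in NTGa (log2 0.58, SE 0.31, limma adjusted p = 0.420). In MCK-PPARb it was at -0.90, -1.09 and -1.27, against -1.31, -2.04 and -1.51 in NTGb (log2 0.53, SE 0.31, limma adjusted p = 0.579). The MCK-PPARb animals lay above all NTGb animals for miR-451, a separation in this direction that 10.8% of the tested assays showed. Both tested endothelial assays, miR-126-3p and miR-126-5p, and all 4 tested smooth muscle and fibroblast microRNAs were called in 0 of these comparisons. Of all tested assays, 2.24% were called in MCK-PPARa against NTGa and 0% in MCK-PPARb against NTGb. Sums on the linear scale weight each assay by an efficiency that is not known, and miR-150 was the highest term of the leukocyte-enriched sum in every animal. The summed relative abundance of the leukocyte-enriched set ran from 32.9 to 42.3 in MCK-PPARa and from 32.3 to 40.2 in NTGa. It ran from 26.98 to 33.8 in MCK-PPARb and from 28.5 to 46.6 in NTGb. For smooth muscle and fibroblast microRNAs the sum was 38.6 to 45.9 in MCK-PPARa, against 39.5 to 40.7 in NTGa, and 31.98 to 37.05 in MCK-PPARb, against 32.7 to 34.2 in NTGb. Whether blood or vessel content had a part in the values of the leukocyte-enriched microRNAs was not tested.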

How the data were processed

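MicroRNA abundance was measured by TaqMan real-time PCR (FAM label, 40 cycles) in soleus RNA of 12 mice, each run on cards A and B, per the labels' protocols. The authors deposited 1 Ct per well, not normalized, per the file headers; an empty cell is a well without a Ct. The sources used here do not state the analysis software or its settings. All 24 data columns were matched to a sample by name. Wells of an assay were averaged, an empty well beside a called one counting as Ct 40. Relative abundance on the log2 scale was computed from the deposited Ct as described in the report. Values not detected, or under it, were set to a floor of -6.56 on card A and -5.66 on card B. Testing needed detection in each of the 3 animals of some group, met by 268 assays (180 on card A, 88 on card B).

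Group means were fitted over 12 animals with limma 3.58.1 in R 4.3.3 (8 residual degrees of freedom before moderation), and p-values are two-sided. The fit was tested on 20 simulated sets for MCK-PPARa against NTGa. There it found 47% of the assays changed 2-fold, so more were missed than found. At 4-fold it found 79.5% and at 8-fold 96%. Among the assays called in these sets, 7.68% were false. All 7 microRNAs of the set are named. Other microRNAs were named from fixed lists, up to 3 of lowest p per list, plus the 3 of most similar pattern and the marker microRNAs of NTGb replicate 2, chosen after their values were seen. The members and lists were chosen with earlier results of these data known. The labels call the replicates biological, and each was taken as a separate animal. Each value of the set rests on 1 well, so technical error was read from the well pairs of card B.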

Additional observations from a re-analysis of the deposited data

How the results depend on the processing

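Over the 19 to 24 alternatives of each comparison, 0 of the tested leukocyte-enriched microRNAs were called in any, as with the settings reported. Over all assays, calls ran from 3 to 9 in MCK-PPARa against NTGa, 0 to 1 in MCK-PPARb against NTGb, 1 to 7 in the difference and 0 to 29 in NTGa against NTGb, where the reported fits had 6, 0, 3 and 5. Of 415 recomputed log2 values, 37 had the opposite sign, in 14 of 20 results; the cause was not tested. With U6 snRNA as reference, MCK-PPARb against NTGb turned to 0.0054 for miR-150, 0.12 for miR-155 and 0.20 for miR-223 (median of all assays 0.33). The difference turned to -0.036 for miR-142-3p, -0.30 for miR-150, -0.065 for miR-155 and -0.039 for miR-223. With that reference, NTGa against NTGb turned to 0.43 for miR-142-3p, 0.47 for miR-146a, 0.29 for miR-155 and 0.40 for miR-223 (median of all assays 0.49). With no scaling, the difference of miR-150 was -0.034, and NTGa against NTGb was 0.22 for miR-142-3p, 0.27 for miR-146a, 0.084 for miR-155 and 0.19 for miR-223. Its medians of all assays were 0.15 in MCK-PPARb against NTGb, -0.11 in the difference and 0.29 in NTGa against NTGb. With endogenous controls, NTGa against NTGb was 0.0059 for miR-142-3p and 0.051 for miR-146a. The median as reference gave 0.0013 for miR-150 in MCK-PPARa against NTGa, -0.037 for miR-142-3p in MCK-PPARb against NTGb and -0.25 for miR-150 in NTGa against NTGb. It put the median of all assays at 0.26 in the difference and -0.22 in NTGa against NTGb. Animal weights gave 0.058 for miR-223 in MCK-PPARb against NTGb, and 0.055 for miR-142-3p, -0.25 for miR-150 and 0.032 for miR-223 in NTGa against NTGb.

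Leaving out 1 animal gave these ranges where the sign turned. In MCK-PPARa against NTGa, miR-150 ran from -0.23 to 0.041. In MCK-PPARb against NTGb, miR-142-3p ran from -0.15 to 0.49, miR-155 from -0.47 to 0.039 and miR-223 from -0.25 to 0.076. The difference of miR-150 ran from -0.025 to 0.61. In NTGa against NTGb, miR-142-3p ran from -0.42 to 0.22, miR-146a from -0.20 to 0.11, miR-150 from -0.37 to 0.26 and miR-223 from -0.30 to 0.030. The replicate numbers were not treated as pairs in the reported fits. Deviations of same-numbered animals correlated at -0.29 to 0.22 within the lines, which with 3 animals per group cannot exclude pairing. With the replicate number as a block, 0 members were called in each of the 4 comparisons, and MCK-PPARa against NTGa had 9 calls over all assays. The set's single wells and groups of 3 limit what these data can resolve, and miR-142-5p near Ct 35 cannot be compared at all.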
